A study of Homo sapiens with 6 samples.

Results

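Retained-intron transcripts are annotated transcripts of a gene that keep sequence which other transcripts of the same gene splice out. They were taken as the GENCODE release 29 transcripts of type retained_intron whose expected count, averaged over the 6 libraries, was 50 or more. There were 10445 such transcripts, called members here, among 28102 retained_intron transcripts and 206761 human transcripts in the tables. The members belonged to 5169 genes, and 10215 of them lay in protein-coding genes. Each member was set beside the sum of the protein_coding transcripts of its gene, called the protein-coding sum.

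The libraries came from HCT116, a human colorectal carcinoma cell line, as total RNA depleted of ribosomal RNA. One group of 3 biological replicates had 16 h of auxin, and the other group of 3 had DMSO, the solvent control. Auxin is a plant hormone used to destroy proteins that carry a degron tag, and the labels name neither a tagged protein nor a clone. The series title concerns chromosome regions near nuclear speckles.

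Introns are removed from most transcripts in the nucleus by the spliceosome, which recognises a GT at the intron's start and an AG at its end. Transcripts that keep an intron are often held in the nucleus or degraded by nonsense-mediated decay, the pathway that removes RNAs with an early stop codon. Short, GC-rich introns are known as the ones most often retained, and nuclear speckles store many splicing factors.

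The members kept intronic sequence in different amounts, and short stretches of it are printed here for some named members. The stretches do not always hold all of a member's intronic sequence. PPP1R37-202 had 2895 intronic bases, DYNC1H1-219 had 859 and MON1A-206 had 816. The first set shows whole introns of the coding region. They are kept by some of the members whose level or ratio to the protein-coding sum rose most after auxin. Capitals mark the GT that follows the upstream exon and the AG that precedes the downstream exon, and the strand is that of the gene. Coordinates are on GRCh38. The introns lie at chr19:45142212-45142302 and chr19:45145261-45145352 (PPP1R37, plus strand), chr6:31859946-31860041 (NEU1, minus), chr3:49909155-49909252 (MON1A, minus), chr19:10557683-10557768 (KRI1, minus) and chr16:2206410-2206478 (MLST8, plus).
PPP1R37-202, intron 6 of 12: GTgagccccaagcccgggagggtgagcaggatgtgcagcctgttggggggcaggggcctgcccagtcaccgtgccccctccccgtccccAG
PPP1R37-202, intron 10 of 12: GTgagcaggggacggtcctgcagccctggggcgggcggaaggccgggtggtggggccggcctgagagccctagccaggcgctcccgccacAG
NEU1-207, intron 5 of 5: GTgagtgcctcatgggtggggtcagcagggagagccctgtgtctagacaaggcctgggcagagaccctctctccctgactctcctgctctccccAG
MON1A-206, intron 7 of 7: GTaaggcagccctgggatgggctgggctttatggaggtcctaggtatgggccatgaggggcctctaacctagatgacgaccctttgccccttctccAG
KRI1-204, intron 15 of 18: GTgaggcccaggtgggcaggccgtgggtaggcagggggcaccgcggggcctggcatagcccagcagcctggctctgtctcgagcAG
MLST8-225, intron 3 of 7: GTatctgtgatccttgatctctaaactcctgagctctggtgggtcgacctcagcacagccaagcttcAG

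The second set shows some of the members that fell most after auxin. Their intronic part is not a whole intron but a stretch at the transcript's start, joined to the next exon at the AG in capitals. These stretches lie at chr19:1621192-1621206 (TCF3, minus strand), chr5:179800954-179800997 (MGAT4B, minus), chr11:65626853-65626903 (PCNX3, plus) and chr19:46383323-46383410 (PPP5C, plus). The 2 sets do not separate members that rose from members that fell. TBL3-206, which fell, spans a whole intron of 89 bases, intron 2 of 25. FAM189B-203 and SSSCA1-204, which rose, span no whole intron.
TCF3-214: tctcttcacccacAG
MGAT4B-204: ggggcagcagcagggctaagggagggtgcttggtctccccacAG
PCNX3-202: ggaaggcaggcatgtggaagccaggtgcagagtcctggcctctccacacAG
PPP5C-210: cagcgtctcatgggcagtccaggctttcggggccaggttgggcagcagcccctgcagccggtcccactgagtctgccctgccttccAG

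The third set shows intronic sequence of members with high levels or high ratios in both groups, at chr14:102004684-102004761 (DYNC1H1, plus strand), chr15:66502751-66502871 (RPL4, minus), chr22:37886846-37886868 (EIF3L, plus) and chr7:87885159-87885183 (DBF4, plus). EIF3L-212 and DBF4-205 end a short way into an intron, after the GT in capitals.
DYNC1H1-219, intron 24 of 77: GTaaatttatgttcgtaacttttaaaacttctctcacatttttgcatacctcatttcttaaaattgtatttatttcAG
RPL4-203: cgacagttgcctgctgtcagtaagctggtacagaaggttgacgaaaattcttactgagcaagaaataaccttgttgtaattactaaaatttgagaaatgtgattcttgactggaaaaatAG
EIF3L-212: GTgagagatctgagagaagaggg
DBF4-205: GTaagtctcttaaatatgctttgag

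GC content of the stretches printed in the first set was 73.6% and 77.2% for PPP1R37, 73.3% for KRI1, 63.5% for NEU1, 59.2% for MON1A and 52.2% for MLST8. Among introns of these members that were not printed, it was 66.7% for intron 12 of PPP1R37 and 59.2% for intron 4 of NEU1. In the second set it was 68.2% for MGAT4B and for PPP5C, 62.7% for PCNX3 and 53.3% for TCF3. In the third set it was 24.4% for DYNC1H1, 36.4% for RPL4, 52.2% for EIF3L and 32% for DBF4. Across the members with protein_coding transcripts to compare with, the median share of bases outside every protein_coding exon of the gene was 36.7%, with quartiles of 18.8% and 57.2%. In 377 members fewer than 30 bases were intronic by this measure. A whole intron of a protein_coding transcript, of at least 30 bases, was spanned by 3932 members. Where few bases set a member apart, the authors' estimate of its count rests on those bases and on how its exons are joined.

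Total expected counts were 270781969 to 546128198 in the DMSO libraries and 234037968 to 625895062 in the auxin libraries, and replicate 1 was the deepest in each group. Replicate 1 of both groups also stood apart from replicates 2 and 3 in the members' levels. The level and ratio call counts over all members and the TPM shares are therefore also given for replicates 2 and 3 alone. Results by intronic share, intron, chromosome, count class and gene list rest on all 6 libraries and are not given without replicate 1. Of 6 markers of epithelial cells, EPCAM, KRT8, KRT18 and KRT19 were at 213 to 982 TPM and CDH1 at 36.5 to 46.3 TPM, but VIL1, of the intestinal brush border, was at 0 to 0.02 TPM. Of markers of other cells, PTPRC and CD3E (blood) were listed at 0 in all 6 libraries, PECAM1, COL1A2 and NCAM1 were at 0 to 0.03 TPM, and COL1A1, a collagen of fibroblasts, was at 1.28 to 2.61 TPM with DMSO and 0.54 to 1.34 TPM with auxin.

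Most members were rare. The median member had a mean of 0.452 CPM, a count scaled to library size with TMM factors, which correct for composition between libraries. A mean of at least 1 CPM was reached by 2914 members, at least 10 CPM by 341 and at least 100 CPM by 19. Just inside the limit of 50 counts were P3H1-208, NDUFB9-207 and REXO2-214 at 50 to 50.002 counts, and just outside were CKAP2L-204, PPP2R1A-204 and KPNA2-206 at 49.987 to 49.998 counts.

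As a whole, the members held a similar share of the RNA in both groups. The median member stood higher beside the protein-coding transcripts of its own gene after auxin, within replicate 1 and within replicates 2 and 3. The members took 3.43%, 2.51% and 2.54% of all TPM, an abundance corrected for length, in DMSO replicates 1, 2 and 3. They took 2.82%, 2.36% and 2.69% in the auxin replicates, so the groups overlapped. In bulk RNA such as this, fewer cells with a transcript and less of it per cell cannot be told apart. The means were 2.83% ± 0.52 and 2.62% ± 0.23 (SD, n = 3 each). With replicate 1 alone, auxin minus DMSO came to -0.613 percentage points, and with replicates 2 and 3 alone to 0.001.

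The median member stood at 3.18%, 2.33% and 2.04% of the protein-coding TPM of its gene in the DMSO libraries and at 4.83%, 3.21% and 3.18% in the auxin libraries. This covers the 10105 members whose protein-coding sum was above 0 TPM in all libraries. The groups met at replicate 1 of DMSO, but within replicate 1 auxin was higher by 1.65 percentage points, and within replicates 2 and 3 by 1.01. A member exceeded the whole protein-coding sum of its gene in TPM 400, 387 and 364 times in the DMSO libraries and 755, 690 and 702 times in the auxin libraries. These counts did not overlap between the groups.

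**Figure D1:**
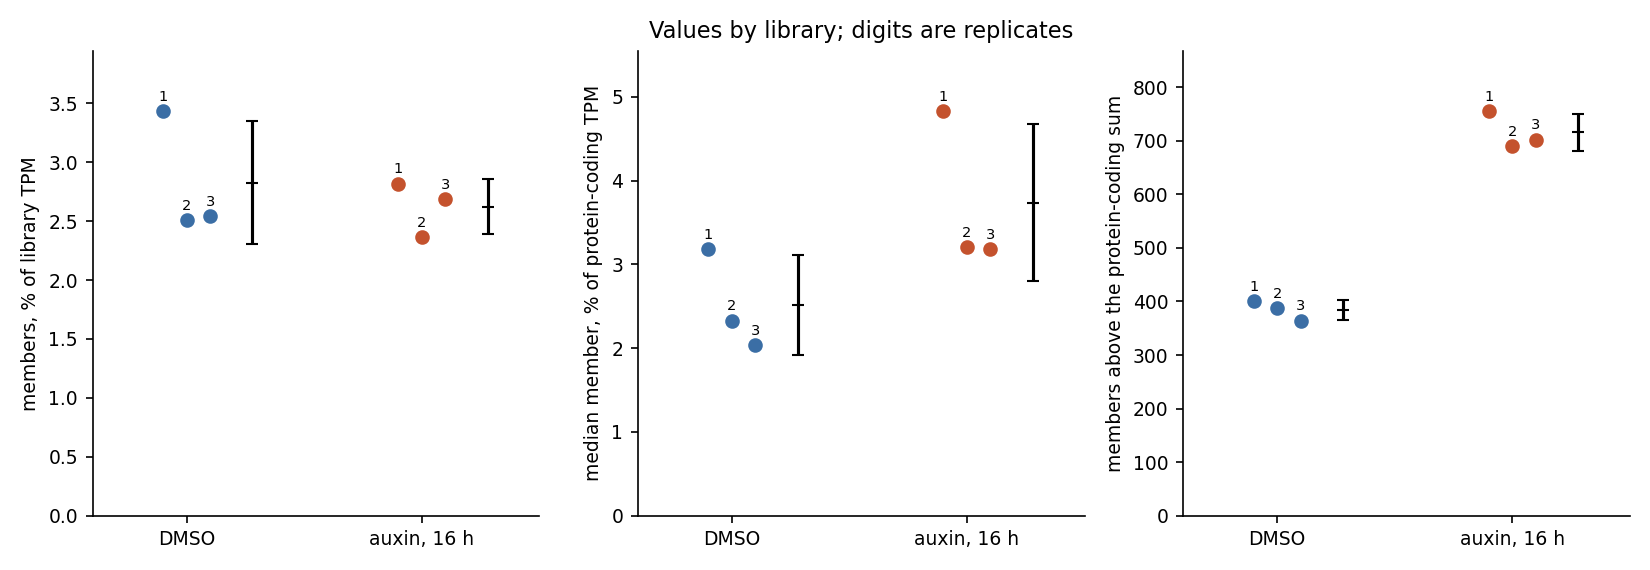
Left, the members' share of library TPM in percent. Middle, the median member's TPM as a percent of the protein-coding sum. Right, the number of members above the protein-coding sum of their gene. Each point is 1 library with its replicate number, and the bar is the mean with its SD (n = 3). Shares of library TPM overlap between the groups, and the numbers on the right are 364 to 400 in DMSO and 690 to 755 after auxin.

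The members with the highest levels were led by transcripts of ribosomal protein and cytoskeletal genes, and most of them had little intronic sequence. The 100 members of highest level held 36.5% of all member CPM, and their median intronic share was 12.3%. RPL4-203 (chr15:66499346-66504827, minus strand), of a gene for a protein of the large ribosomal subunit, had 699, 863 and 869 CPM in the DMSO libraries and 871, 1101 and 1076 CPM in the auxin libraries. Every auxin library lay above every DMSO library, with a log2 fold change of 0.33 ± 0.13 (SE; edgeR, Benjamini-Hochberg adjusted p = 0.143), and the adjusted p was 0.005 with the replicate number as a block. Only 121 of its 1396 bases were intronic, and it overlaps the small nucleolar RNA gene SNORD16.

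TUBA1C-203, of an alpha-tubulin gene, had 373, 390.3 and 431 CPM in the DMSO libraries and 375, 414 and 495 CPM in the auxin libraries, with overlapping groups. Its log2 fold change was 0.10 ± 0.12 (SE; edgeR, Benjamini-Hochberg adjusted p = 0.623). FAT1-202, of a gene for a large cadherin, had 156, 139 and 128 CPM in the DMSO libraries and 243, 251 and 257 CPM in the auxin libraries, without overlap. It rose by a log2 fold change of 0.83 ± 0.09 (SE; edgeR, Benjamini-Hochberg adjusted p = 0.0022), and the protein-coding sum of FAT1 rose by 0.72 (edgeR, Benjamini-Hochberg adjusted p = 0.00121). The ratio of FAT1-202 to that sum differed by 0.10 ± 0.18 (SE; limma, Benjamini-Hochberg adjusted p = 0.806), within the replicate spread.

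DYNC1H1-219 comes from the gene for the heavy chain of cytoplasmic dynein, a motor that moves cargo along microtubules. It had 338, 294 and 302 CPM in the DMSO libraries and 194, 197 and 201 CPM in the auxin libraries, and each auxin value was below each DMSO value. It fell, with a log2 fold change of -0.66 ± 0.07 (SE; edgeR, Benjamini-Hochberg adjusted p = 0.00265), and its protein-coding sum fell too, with -0.78 (edgeR, Benjamini-Hochberg adjusted p = 0.0176). The gene held 20 members, the most of any gene. The calls of FAT1-202 and DYNC1H1-219 were lost with limma-trend on log2(TPM + 1), at Benjamini-Hochberg adjusted p of 0.139 and 0.0753.

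RPS23-203, of a small-subunit ribosomal protein gene, rose by 0.28 ± 0.07 (SE; edgeR, Benjamini-Hochberg adjusted p = 0.033), and the call was lost without any 1 library, at adjusted p of 0.0614 to 0.161. EIF3L-212, of a gene for a subunit of an initiation factor of translation, rose by 0.26 ± 0.07 (SE; edgeR, Benjamini-Hochberg adjusted p = 0.0459). That call was lost without any 1 library too, at adjusted p of 0.076 to 0.162, and with scaling by library size only, at adjusted p of 0.375. AP3S1-202, MED13L-216, PALLD-208 and RPL3-215, the others among the 10 highest, had overlapping groups and log2 fold changes of -0.11 to 0.20, none past the threshold by edgeR with Benjamini-Hochberg adjustment (adjusted p of 0.565 to 0.881).

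Some members outweighed the protein-coding sum of their gene already in DMSO. DBF4-205, of the gene for the activating subunit of the CDC7 kinase, had 24.8 ± 5 times the protein-coding TPM in DMSO (SD, n = 3) and 21.4 ± 2.5 times after auxin. Its level was 8.04, 7.1 and 8.1 CPM in the DMSO libraries and 6.96, 7.63 and 8.99 CPM in the auxin libraries, and the groups overlapped. It had 25 intronic bases in 574. DYRK4-215, of a protein kinase gene, stood at 18.8 ± 3 times in DMSO and 19.2 ± 3.1 times after auxin (SD, n = 3). Its level rose by a log2 fold change of 0.68 ± 0.17 (SE; edgeR, Benjamini-Hochberg adjusted p = 0.0359), and its protein-coding sum by 0.85 (edgeR, Benjamini-Hochberg adjusted p = 0.0108). The level call was lost without any DMSO library or auxin replicate 2 or 3, at adjusted p of 0.0967 to 0.128. It was also lost with no filter on low counts (0.0583) and with limma-trend on log2(TPM + 1) (0.103).

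DNAH5-203, of a gene for a dynein heavy chain of cilia, stood at 16.6 ± 2 times in DMSO and 9.24 ± 1.5 times after auxin (SD, n = 3). Its protein-coding sum rose by a log2 fold change of 1.19 (edgeR, Benjamini-Hochberg adjusted p = 0.00145), and its ratio differed by -0.82 ± 0.21 (SE; limma, Benjamini-Hochberg adjusted p = 0.0592). TMEM138-211, PARP12-207 and LOXL1-204 completed the 6 highest, at 12.2 to 13.9 times in DMSO and 11.8 to 16.1 times after auxin. PARP12-207 and LOXL1-204 rose in level, and TMEM138-211 did not pass the test, with a log2 fold change of -0.03 ± 0.33 (SE; edgeR, Benjamini-Hochberg adjusted p = 0.964). PARP12-207 had 21, 18 and 19 CPM in the DMSO libraries and 31.5, 29.6 and 31.8 CPM in the auxin libraries, without overlap, and its log2 fold change was 0.68 ± 0.09 (SE; edgeR, Benjamini-Hochberg adjusted p = 0.00478). The call of PARP12-207 was lost with limma-trend on log2(TPM + 1), at Benjamini-Hochberg adjusted p of 0.273. LOXL1-204 had 3.45, 3.44 and 3.43 CPM in the DMSO libraries and 5.29, 5.41 and 5.28 CPM in the auxin libraries, without overlap, and its log2 fold change was 0.63 ± 0.11 (SE; edgeR, Benjamini-Hochberg adjusted p = 0.0127). That call was lost without DMSO replicate 2 or 3 or auxin replicate 2 or 3, at adjusted p of 0.0536 to 0.0637, with library size only, at 0.0524, and with limma-trend on log2(TPM + 1), at 0.226.

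Comparing levels one by one with TMM scaling, about as many members rose as fell after auxin, and both shares were below those over all transcripts. Of 10426 members tested with edgeR's quasi-likelihood test, 710 (6.81%) were higher and 752 (7.21%) were lower at a Benjamini-Hochberg adjusted p under 0.05. Over all 83072 transcripts tested, 8.43% were higher and 11.2% were lower. The median log2 fold change was 0.026 over the members and -0.01 over all transcripts. All 3 auxin libraries lay above all 3 DMSO libraries for 1745 members (16.7%, against 18.7% of all transcripts), and below them for 1655 (15.8%, against 21.6%).

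The split between higher and lower moved with the scaling and the test. Library size only gave 461 higher and 691 lower, limma-trend on log2(TPM + 1) gave 213 and 442, on log2(TPM + 0.1) 275 and 561, and leaving out auxin replicate 1 gave 466 and 774. Upper-quartile scaling moved the split to 1056 higher and 612 lower, while moving the median of all transcripts to 0.173 and that of the members to 0.207. The replicate block gave 1235 higher and 1128 lower. Replicates 2 and 3 alone gave 751 higher and 824 lower. Without DMSO replicate 2 or 3 or auxin replicate 1, 2 or 3, the higher count was 276, 328, 466, 359 and 390. Without DMSO replicate 2 or 3 or auxin replicate 2 or 3, the lower count was 379, 480, 399 and 400.

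Calls on the protein-coding sums of the members' genes leaned towards lower values with TMM scaling. Of 5003 sums tested, 1000 (20%) were higher and 1919 (38.4%) were lower by edgeR, against 22.6% and 30.4% of 13755 protein-coding sums of all genes. The median log2 fold change over these 5003 sums was -0.10. With upper-quartile factors the split was 1988 higher and 1573 lower, the replicate block gave 1670 higher and 2313 lower, and without DMSO replicate 2 the higher count was 662. Among all members, 3231 (30.9%) did not pass the level test while the protein-coding sum of their gene fell. Another 1695 (16.2%) did not pass it while the sum rose, and 628 (6.01%) fell together with the sum. Taken singly, 85.8% of members did not pass the level test, and the sum fell for 40.2% and rose for 18.1%. The joint counts were not tested against these shares.

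The ratio of a member to its protein-coding sum moved mostly 1 way. Of 10150 members tested with limma on the log2 ratio of counts, 1813 (17.9%) were higher after auxin and 115 (1.13%) were lower. Over 31110 transcripts of all types other than protein_coding, members included, 11.5% were higher and 2.17% were lower. Among nonsense_mediated_decay transcripts at the same mean count the shares were 7.06% and 3.72% of 4645, and among processed_transcript entries 7.83% and 2.93% of 5661. Differences between these types were not tested. The median log2 change of the ratio was 0.133 over the members and 0.0582 over all transcripts tested.

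The ratio does not depend on how libraries are scaled. Replicates 2 and 3 alone gave 1561 higher and 117 lower. The replicate block moved the lower count to 173. Without DMSO replicate 2 the counts were 1208 and 45, and the lower count was 65, 55 and 74 without DMSO replicate 1, DMSO replicate 3 and auxin replicate 3. With 1 member per gene, the one of highest mean count, 800 of 4999 were higher and 55 lower, and among members with at least 50% intronic bases 616 of 3394 were higher and 20 lower.

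Of the 1813 members with a higher ratio, 1675 (92.4%, against 40.2% of all members) lay in genes whose protein-coding sum fell. In 1258 of them the sum fell while the member's own level did not pass the test, and in 327 the sum fell while the member rose. In 90 both fell. The other combinations were 90 members that rose while the sum did not pass the test, 17 that rose together with a rising sum, and 31 in which neither passed. The ratio and both levels come from the same counts, so these numbers describe the calls and are not a separate test. Over the 1813 members, the group means had medians of 0.351 CPM with DMSO and 0.483 CPM with auxin for the member, and of 19.1 and 3.96 CPM for the protein-coding sum.

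Of the 115 members with a lower ratio, the member itself fell in 87 (75.7%, against 7.2% of all members). The protein-coding sum fell in 40 (34.8%, against 40.2% of all members) and rose in 36 (31.3%, against 18.1%). It did not pass the test in 39, and its median log2 fold change was -0.07. Their group means had medians of 0.926 CPM with DMSO and 0.163 CPM with auxin, beside 15.5 and 11.9 CPM for the protein-coding sum. In 29 genes a member with a higher ratio stood beside a member with a lower one.

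**Figure D2:**
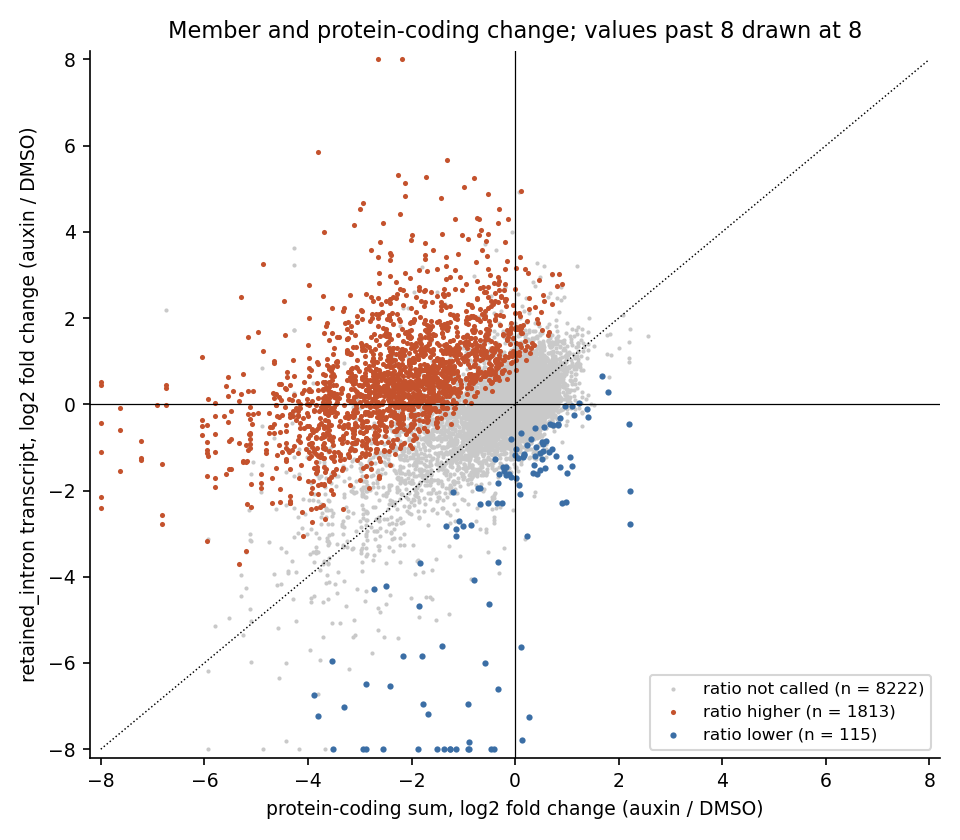
Log2 fold change (auxin / DMSO) of the protein-coding sum on the horizontal axis and of the retained_intron transcript on the vertical axis, 1 point per member tested in both, coloured by the call on the ratio. Values past 8 are drawn at 8, and the dotted line marks equal change. The 1813 members with a higher ratio lie mostly left of the vertical line, where the protein-coding sum is lower, and above and below 0 in their own level.

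The members that rose most were rare in DMSO, and among them RNPEPL1-207, NEU1-207 and MON1A-206 exceeded the protein-coding sum in TPM in all 3 auxin libraries. PPP1R37-202 (chr19:45141418-45148077, plus strand), of a gene for a regulator of protein phosphatase 1, had 0.814, 0.524 and 0.446 CPM in the DMSO libraries and 33.7, 27.7 and 29.2 CPM in the auxin libraries. Its protein-coding sum went from 12.1, 9.14 and 9.53 CPM to 4.77, 3.7 and 4.02 CPM. The member lay above the sum in CPM, which is not corrected for length, in all 3 auxin libraries, but its TPM was 0.987 ± 0.021 times the sum's (SD, n = 3) and below it in replicates 2 and 3. The log2 fold change of the member was 5.66 ± 0.29 (SE; edgeR, Benjamini-Hochberg adjusted p = 2.43e-04) and that of the sum -1.31 (edgeR, Benjamini-Hochberg adjusted p = 0.00123). It spans the GC-rich introns 6 and 10 printed above.

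RNPEPL1-207, of an aminopeptidase-like gene, had 0.522, 0.285 and 0.322 CPM in the DMSO libraries and 19.9, 11.3 and 12.1 CPM in the auxin libraries. It rose by a log2 fold change of 5.25 ± 0.38 (SE; edgeR, Benjamini-Hochberg adjusted p = 6.24e-04), and its TPM went from 0.0166 ± 0.003 to 1.27 ± 0.23 times the protein-coding TPM (SD, n = 3). NEU1-207 (chr6:31859052-31862805, minus strand) comes from the gene for a lysosomal sialidase, which trims sialic acid from glycoproteins. It had 0.439, 0.369 and 0.408 CPM in the DMSO libraries and 11.4, 11.6 and 11.6 CPM in the auxin libraries, while the sum went from 13.5, 15.3 and 15.7 CPM to 3.29, 3.62 and 3.45 CPM. The member rose by a log2 fold change of 4.83 ± 0.14 (SE; edgeR, Benjamini-Hochberg adjusted p = 1.11e-04), and the sum fell, with a log2 fold change of -2.12 (edgeR, Benjamini-Hochberg adjusted p = 2.83e-05).

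MON1A-206, of a gene for a factor that activates the endosomal GTPase Rab7, had 0.436, 0.306 and 0.438 CPM in the DMSO libraries and 8.17, 9.08 and 10.1 CPM in the auxin libraries. It rose by a log2 fold change of 4.53 ± 0.22 (SE; edgeR, Benjamini-Hochberg adjusted p = 2.21e-04), while the protein-coding sum went from 6.5, 5.85 and 6.63 CPM to 5.39, 4.74 and 5.36 CPM and did not pass the test, with a log2 fold change of -0.31 (edgeR, Benjamini-Hochberg adjusted p = 0.0857). SSSCA1-204 had 0.386, 0.25 and 0.12 CPM in the DMSO libraries and 4.33, 3.75 and 3.76 CPM in the auxin libraries, and rose by 3.96 ± 0.45 (SE; edgeR, Benjamini-Hochberg adjusted p = 0.00276) on the log2 scale. In all of these members the auxin and DMSO values were apart, as the rule for naming them required.

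EIF4A1-221 and RPL28-202 rose in genes whose protein-coding sums stayed far above them. EIF4A1-221, of the gene for an RNA helicase of translation initiation, had 0.163, 0.0773 and 0.0562 CPM in the DMSO libraries and 3.75, 0.927 and 1.28 CPM in the auxin libraries, beside protein-coding sums from 712, 906 and 951 CPM to 665, 849 and 853 CPM. Its log2 fold change was 4.31 ± 0.74 (SE; edgeR, Benjamini-Hochberg adjusted p = 0.0112), and the adjusted p was 0.0591 without DMSO replicate 2. It overlaps the small RNA gene SNORA67 and the readthrough gene SENP3-EIF4A1, which can share reads with it. RPL28-202 had 0.488, 0.2 and 0.0974 CPM in the DMSO libraries and 8.12, 3.71 and 2.9 CPM in the auxin libraries, and rose by 4.21 ± 0.75 (SE; edgeR, Benjamini-Hochberg adjusted p = 0.0125), with adjusted p of 0.0639 without DMSO replicate 2 and 0.0726 with limma-trend on log2(TPM + 1).

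FAM189B-203 had 0.172, 0.0387 and 0 CPM in the DMSO libraries and 2.36, 3.13 and 3.08 CPM in the auxin libraries. It rose by a log2 fold change of 5.27 ± 1.28 (SE; edgeR, Benjamini-Hochberg adjusted p = 0.0354), but the call was lost without DMSO replicate 2 or auxin replicate 1, 2 or 3, at adjusted p of 0.0610 to 0.137. Its protein-coding sum went from 33.3, 26.9 and 27.6 CPM to 9.81, 8.13 and 8.92 CPM.

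ZNF598-207, KRI1-204 and MLST8-225 were named for their ratio, and in each the protein-coding sum nearly vanished or fell several-fold. ZNF598 encodes a ubiquitin ligase that senses collided ribosomes. ZNF598-207 had 0.875, 0.436 and 0.438 CPM in the DMSO libraries and 4.52, 2.91 and 2.39 CPM in the auxin libraries, while the sum went from 12.8, 9.31 and 9.84 CPM to 0.196, 0.215 and 0.423 CPM, and the log2 ratio rose by 7.84 ± 0.54 (SE; limma, Benjamini-Hochberg adjusted p = 0.00106). KRI1, a factor of ribosome assembly, had a sum that went from 4.47, 9.29 and 9.99 CPM to 0.288, 0.266 and 0.202 CPM. KRI1-204 had 2.41, 1.53 and 1.4 CPM in the DMSO libraries and 7.3, 4.54 and 5.09 CPM in the auxin libraries, and its log2 ratio rose by 6.57 ± 0.55 (SE; limma, Benjamini-Hochberg adjusted p = 0.00157). It overlaps ATG4D on the opposite strand, and ZNF598-207 overlaps AC005606.1 in the same way.

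MLST8, a subunit of the mTOR complexes, showed the largest rise of ratio among the members eligible for naming. MLST8-225 had 0.319, 0 and 0 CPM in the DMSO libraries and 2.8, 2.28 and 2.03 CPM in the auxin libraries, and its sum went from 9.94, 5.9 and 5.62 CPM to 1.9, 1.54 and 1.17 CPM. Its TPM after auxin was 6.01 ± 0.61 times the protein-coding TPM (SD, n = 3). The log2 ratio rose by 10.05 ± 1.84 (SE; limma, Benjamini-Hochberg adjusted p = 0.0182), and this fit rests on counts of 0 in DMSO replicates 2 and 3. This ratio call was lost without DMSO replicate 2 or 3 or any auxin library, at adjusted p of 0.0553 to 0.0643. The level of MLST8-225 did not pass the test, with a log2 fold change of 4.41 ± 1.785 (SE; edgeR, Benjamini-Hochberg adjusted p = 0.148).

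The members that fell most went to or near 0 counts after auxin while other transcripts of the gene remained. TCF3-214, of the gene for an E-protein transcription factor, had 4.15, 2.51 and 1.91 CPM in the DMSO libraries and 0, 0 and 0 CPM in the auxin libraries. With a floor of 3 counts per library in place of 0 it was 275-fold lower after auxin (edgeR, Benjamini-Hochberg adjusted p = 0.00178). The authors' posterior SD of its count was 6.96, 3.68 and 10.3 counts in the auxin libraries. These lie above the floor, so 275-fold is not a lower bound. The call on its ratio to the protein-coding sum was lost with precision weights from the posterior SD (limma, Benjamini-Hochberg adjusted p = 0.405). The protein-coding sum of TCF3 went from 65.7, 55.8 and 56.5 CPM to 30.1, 25.2 and 26 CPM. TCF3-214 holds 15 intronic bases in 541, those printed above.

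TBL3-206, of a gene for a component of the small-subunit processome in the nucleolus, had 18.9, 11.3 and 12.6 CPM in the DMSO libraries and 0.0301, 0 and 0 CPM in the auxin libraries. In DMSO it stood at 3.67 ± 0.67 times the protein-coding TPM of its gene and after auxin at 0.00347 ± 0.006 times (SD, n = 3). Its protein-coding sum went from 8.87, 7.35 and 8.05 CPM to 6.03, 3.67 and 3.5 CPM, and the level test gave a Benjamini-Hochberg adjusted p of 0.00228 by edgeR. PCNX3-202 went the same way, with 13.1, 9.75 and 10.3 CPM in the DMSO libraries and 0.346, 0.0988 and 0.0506 CPM in the auxin libraries, a log2 fold change of -6.01 ± 0.79 (SE; edgeR, Benjamini-Hochberg adjusted p = 0.00437) and sums that went from 22, 15.6 and 16.3 CPM to 15.1, 11 and 10.4 CPM.

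SYMPK-210 and PPP5C-210 fell in genes whose protein-coding sums fell steeply too. SYMPK encodes symplekin, a scaffold of the machinery that makes the 3′ ends of mRNAs. SYMPK-210 had 4.3, 3.32 and 3.89 CPM in the DMSO libraries and 0.0105, 0.0601 and 0.023 CPM in the auxin libraries, and the sum went from 69.5, 56.8 and 61.1 CPM to 7.29, 5.93 and 5.81 CPM. The log2 fold change was -7.02 ± 0.69 (SE; edgeR, Benjamini-Hochberg adjusted p = 0.00167) for the member and -3.31 (edgeR, Benjamini-Hochberg adjusted p = 1.66e-05) for the sum.

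PPP5C-210, of a serine/threonine phosphatase gene, had 2.15, 2.84 and 2.38 CPM in the DMSO libraries and 0.0919, 0.00859 and 0 CPM in the auxin libraries. The protein-coding sum went from 68, 68.1 and 76.2 CPM to 3.4, 3.71 and 2.92 CPM. The member fell, with a log2 fold change of -6.00 ± 1.23 (SE; edgeR, Benjamini-Hochberg adjusted p = 0.0205), and the adjusted p was 0.071, 0.0637 and 0.0746 without DMSO replicate 2, DMSO replicate 3 and auxin replicate 2. Its ratio to the sum did not pass the test, with a log2 difference of -3.09 ± 1.25 (SE; limma, Benjamini-Hochberg adjusted p = 0.193).

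ERAL1-205, of a gene for a GTPase that assembles the mitochondrial small ribosomal subunit, had 2.57, 3.62 and 3.67 CPM in the DMSO libraries and 0.0136, 0.0472 and 0.00919 CPM in the auxin libraries. It fell, with a log2 fold change of -7.18 ± 0.66 (SE; edgeR, Benjamini-Hochberg adjusted p = 0.00136). MRPL2-205, of a mitochondrial ribosomal protein gene, had 5.62, 3.25 and 4.39 CPM in the DMSO libraries and 0.0196, 0.12 and 0 CPM in the auxin libraries. Its log2 fold change was -6.61 ± 1.25 (SE; edgeR, Benjamini-Hochberg adjusted p = 0.0155), with adjusted p of 0.0525 and 0.0533 without DMSO replicate 2 and 3. Only 5 of its 661 bases were intronic, and it overlaps KLC4 on the opposite strand. MGAT4B-204, of a gene for an enzyme that branches N-glycans, had 4.76, 5.69 and 6.42 CPM in the DMSO libraries and 0.161, 0 and 0 CPM in the auxin libraries. Its log2 fold change was -6.52 ± 1.59 (SE; edgeR, Benjamini-Hochberg adjusted p = 0.036). That call was lost without any DMSO library or auxin replicate 2 or 3, at adjusted p of 0.0621 to 0.104.

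SAP30BP-213 was listed at 0 in all 3 auxin libraries, but in DMSO it had 0.0504, 4.07 and 3.48 CPM, so replicate 1 stood apart from the other two. Its ratio test gave a Benjamini-Hochberg adjusted p of 0.0252 by limma, and the call was lost without DMSO replicate 2 or 3 or any auxin library, at adjusted p of 0.0691 to 0.0894. It was also lost with posterior mean counts (adjusted p = 0.082), with 5 counts added (0.0757) and with precision weights from the posterior SD (0.474). Its level did not pass the test (edgeR, adjusted p = 0.0535), and with the replicate block its adjusted p was 0.0108. Counts of 0 in all auxin libraries occurred in 20 members and in all DMSO libraries in 7. Such members met the limit of 50 counts only through the other group, so these numbers are no result about the members. The mean count was under 50 in the DMSO group for 591 members and in the auxin group for 776. The share of all transcripts at 0 in 1 group was not counted.

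**Figure D3:**
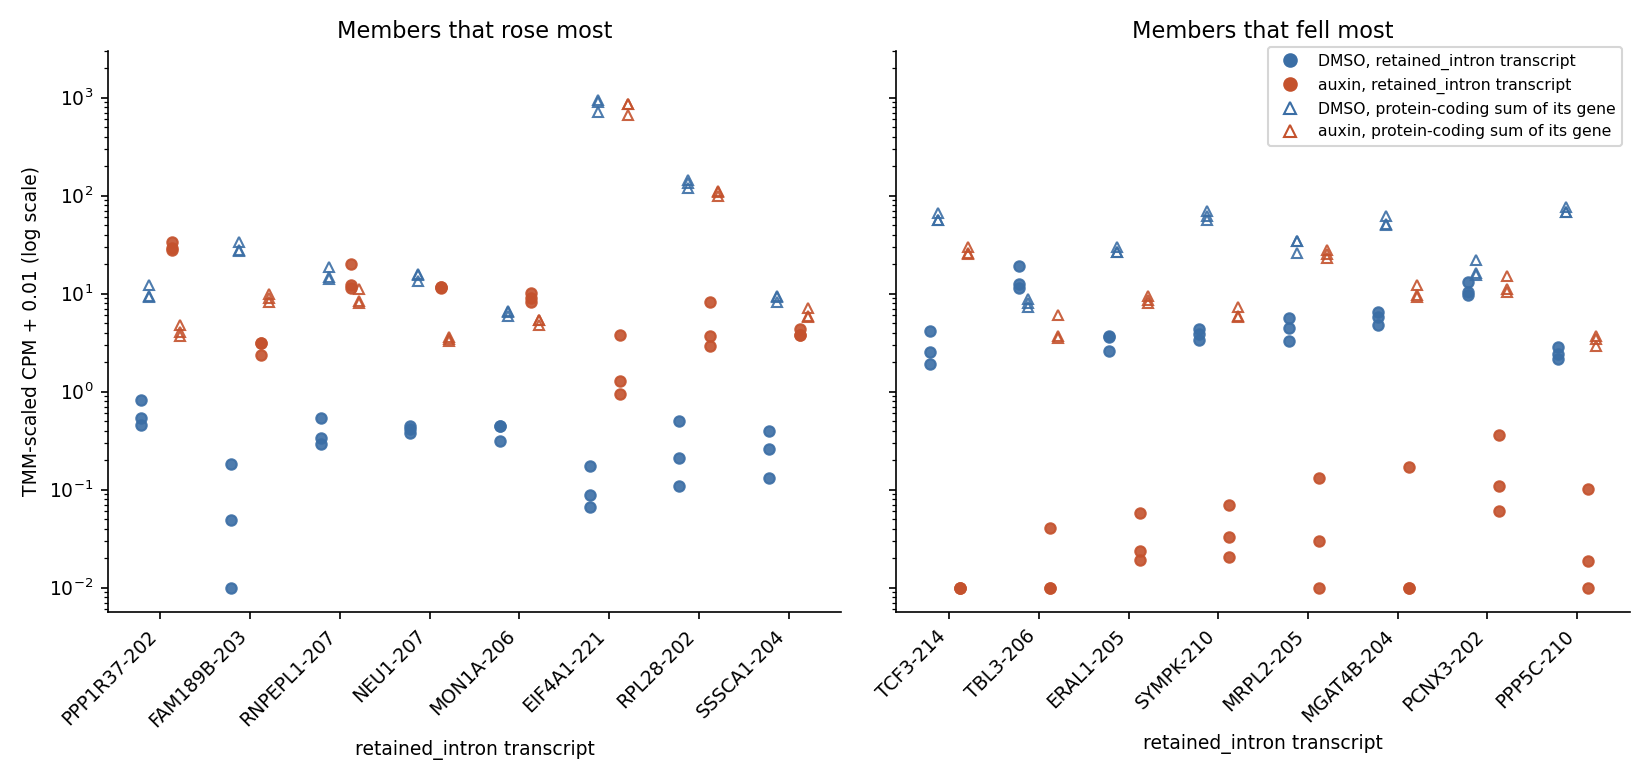
TMM-scaled CPM + 0.01 on a log axis for the 8 members that rose most (left) and the 8 that fell most (right), 1 filled point per library, beside the protein-coding sum of the same gene as open triangles. Blue is DMSO and orange is auxin (n = 3 each). PPP1R37-202 and NEU1-207 lie above their protein-coding sums after auxin in CPM, which is not corrected for length, and TCF3-214 lies at 0 CPM in all auxin libraries.

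The amount of intronic sequence differed between members that rose and members that fell, a difference given here with no test. The median intronic share was 18.0% for the 752 members that fell, 33.9% for the 710 that rose and 38.6% for those not called. Among members with under 10% intronic bases, 16.3% of 1259 fell and 7.55% rose, and among those with at least 50%, 2.91% of 3403 fell and 6.11% rose. The part of the estimation of counts in this pattern was not tested. The authors' posterior SD, their measure of uncertainty in splitting reads between transcripts, had a median of 7.67% of the count and exceeded 25% in 828 members.

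Ratio calls were also counted for members that span a whole intron and for the others, with no test between these sets. Of 3900 spanning members tested, 1160 (29.7%) were higher and 37 lower, and of 6250 members that span none, 653 (10.4%) were higher and 78 lower. The protein-coding sum fell in 51.9% of 2445 genes of the former and in 32.7% of 3814 genes of the latter. Their own levels changed little in the median, with log2 fold changes of 0.03 and 0.022.

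Within the spanning members, the ratio moved with the GC content of the intron. Each member was placed by the shortest intron it spans. Below 40% GC, 16 of 807 members (1.98%) had a higher ratio. At 40% to 50% GC the share was 15.9% of 693, at 50% to 60% it was 37.3% of 1063, at 60% to 70% it was 48.9% of 1014 and at 70% or more it was 44% of 323. The median log2 fold change of the protein-coding sum ran from 0.11 in the lowest class to -1.77 and -1.83 in the highest 2, and that of the member stayed between -0.19 and 0.09. The member medians thus followed no such gradient.

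Length showed a gradient as well. The ratio was higher in 35.1% of 909 members whose shortest spanned intron had 30 to under 100 bases, in 36.8% of 927 at 100 to under 200, in 30.7% of 1130 at 200 to under 500, in 20.7% of 513 at 500 to under 1000 and in 11.2% of 421 at 1000 or more. Over distinct introns, the median length was 246.5 bases and the median GC 60.2% for the 2362 introns of members with a higher ratio. The 4331 introns of members without a ratio call had medians of 371 bases and 50.1% GC. Introns of some other members were also short and GC-rich, given with no test. The medians were 249 bases and 58.2% GC for the 61 introns of members with a lower ratio, and 189.5 bases and 60.2% GC for the 504 introns of members whose level fell. Members share genes and libraries, so these shares are descriptions with no test, and GC bias of the libraries was not tested. GT at the start and AG at the end were present in 98.0% of the introns of members with a higher ratio and 96.6% of those without a ratio call.

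**Figure D4:**
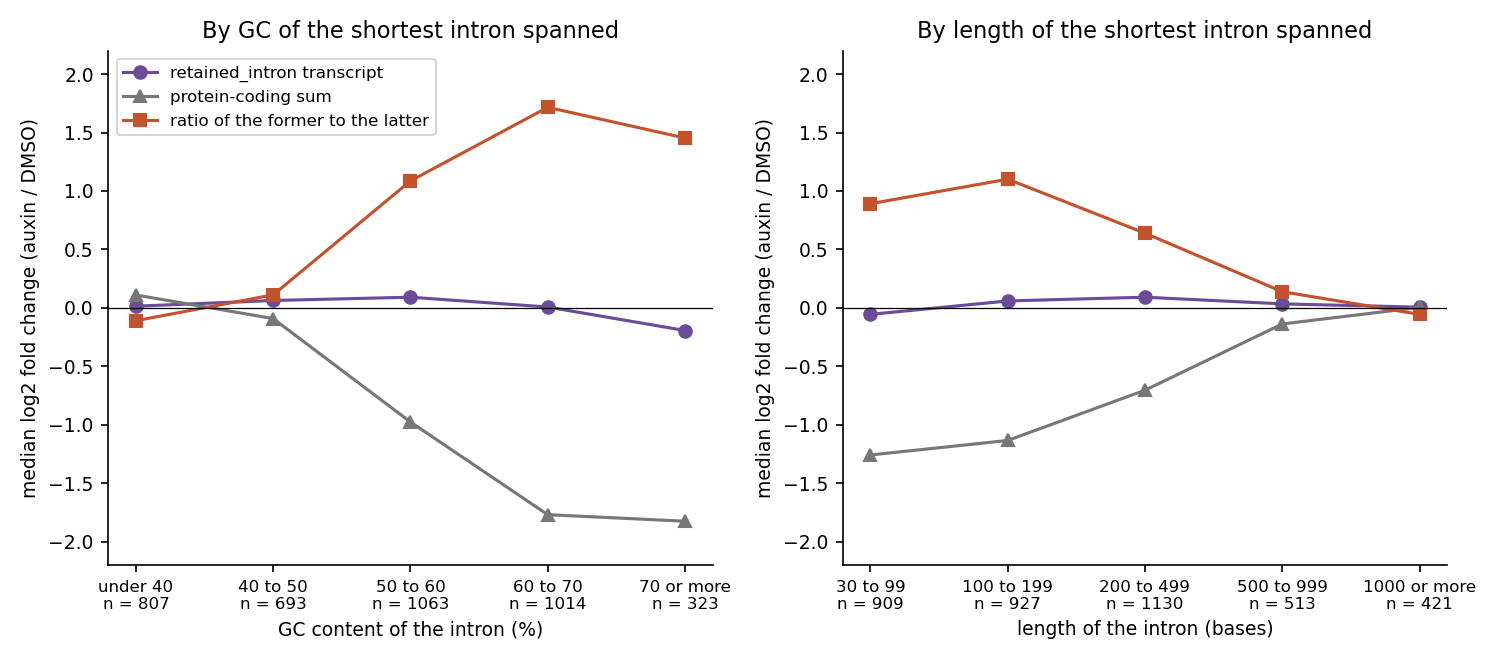
Median log2 fold change (auxin / DMSO) of members that span a whole intron, by GC content (left) and length (right) of the shortest intron spanned, for the retained_intron transcript, the protein-coding sum and the ratio. The number of members tested is under each class. The protein-coding medians fall to -1.83 at high GC, while the member medians stay within -0.19 and 0.09.

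By chromosome, given with no test, the share of members with a higher ratio was 33.1% of 765 members on chromosome 19, 27.2% of 911 on chromosome 17, 26.5% of 283 on chromosome 22 and 23.3% of 768 on chromosome 11. It was 3.61% of 166 on chromosome 18, 4.12% of 97 on chromosome 13, 5.49% of 164 on chromosome 10 and 6.12% of 327 on chromosome 4. On chromosome 19 the protein-coding sum fell in 61.8% of 390 genes and on chromosome 18 in 19.5% of 77. In their own level, 9.35% of 781 members were higher and 11.5% lower on chromosome 19, and 3.01% of 166 were higher and 4.82% lower on chromosome 18.

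**Figure D5:**
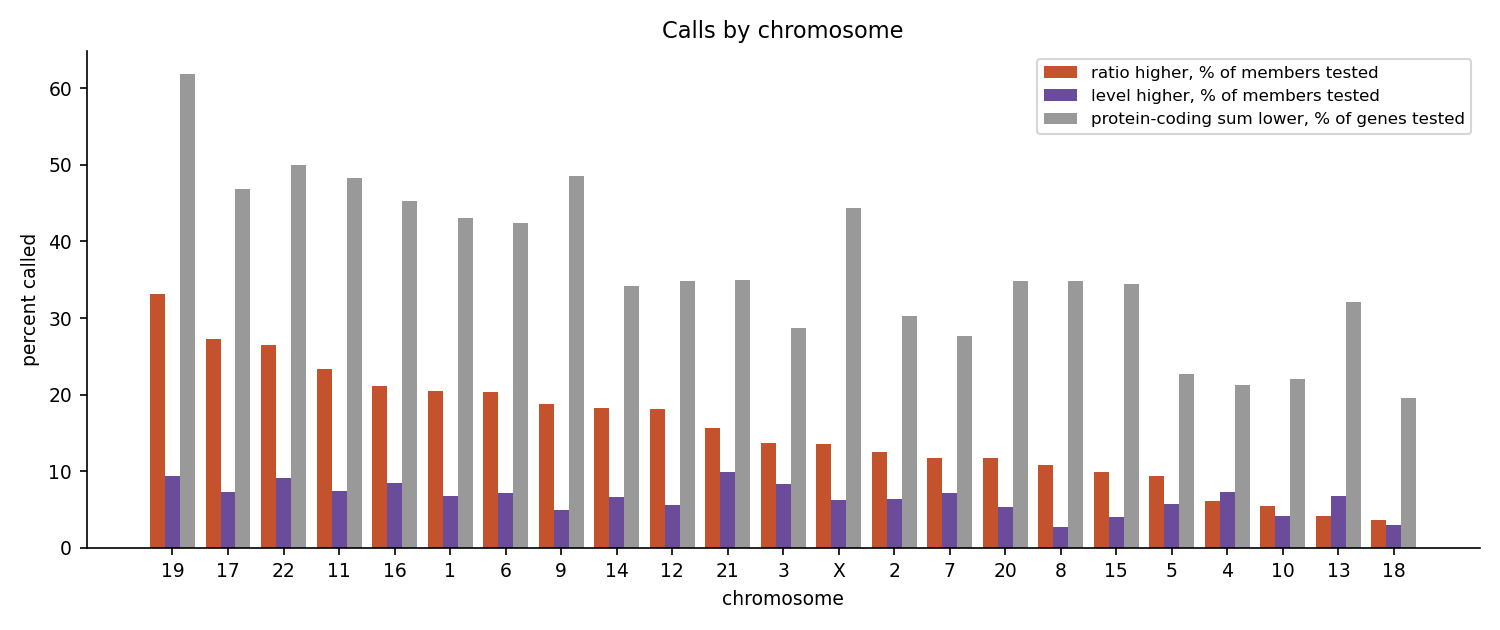
Percent of members with a higher ratio and with a higher level, and percent of the members' genes with a lower protein-coding sum, by chromosome, ordered by the first. Chromosomes with under 50 members are left out. The share with a higher ratio runs from 33.1% on chromosome 19 to 3.61% on chromosome 18.

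Ratio calls were present in rare and in abundant members. At a mean count of 50 to 200, 952 of 5305 members (17.9%) had a higher ratio, at 200 to 1000 it was 696 of 3570 (19.5%), and at 1000 or more 165 of 1275 (12.9%). The level was higher in 4.36% and lower in 5.17% of the first class, and higher in 14.3% and lower in 11% of the last. Members that overlap a gene on the opposite strand, whose reads cannot be told apart unless counting used the strand, had a higher ratio in 22.8% of 1562, against 17% of 8588 without such an overlap.

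Counts in the gene lists are read against the shares over all members, of which 6.81% rose and 7.21% fell in level, and 17.9% had a higher and 1.13% a lower ratio. A share near these is no result about a list. Of 29 members in genes of SR proteins, which bind exons and promote splicing, 1 rose (3.45%) and 1 fell in level, and none passed the ratio test by limma. SRSF3-207, the most abundant, had 31.8, 21.6 and 19.1 CPM in the DMSO libraries and 30.1, 18.6 and 17.8 CPM in the auxin libraries, with overlapping groups. Of 88 members in genes of speckle proteins, 3 rose (3.41%) and 2 fell (2.27%), and 6 had a higher (6.82%) and 1 a lower ratio. DDX39B-215, of an RNA helicase of splicing and mRNA export, had 27.6, 19.2 and 13 CPM in the DMSO libraries and 38, 19.1 and 20.8 CPM in the auxin libraries, and its log2 fold change was 0.38 ± 0.37 (SE; edgeR, Benjamini-Hochberg adjusted p = 0.548).

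Of 27 members in genes of kinases that act on splicing factors, 3 rose (11.1%) and none fell, and 2 had a higher ratio (7.41%). Of 74 in hnRNP genes, whose proteins coat nascent RNA, 5 rose (6.76%) and none fell, and 4 had a higher ratio (5.41%). Of 84 in genes of the core spliceosome, 8 rose (9.52%), 1 fell and 11 had a higher ratio (13.1%). Of 26 in genes of nonsense-mediated decay, 2 rose (7.69%), 1 fell and 4 had a higher ratio (15.4%).

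Genes of DNA replication stood at the lower end. Of their 66 members, 1 rose and 15 fell in level (22.7%, against 7.21% of all members), with a median log2 fold change of -0.91. The protein-coding sum fell in 25 of 30 genes (83.3%, against 38.4% of the genes of all members). A higher ratio was called in 13 members (19.7%, near the share over all members) and a lower one in none. MCM7-210, of a subunit of the helicase that unwinds DNA at origins, had 139, 128 and 135 CPM in the DMSO libraries and 54.1, 47.8 and 56.9 CPM in the auxin libraries. By the measure used above MCM7-210 had 0 intronic bases, although it spans a whole intron of a protein_coding transcript. It fell, with a log2 fold change of -1.34 ± 0.09 (SE; edgeR, Benjamini-Hochberg adjusted p = 4.86e-04), beside -1.44 (edgeR, Benjamini-Hochberg adjusted p = 0.00235) for the sum, and the ratio differed by 0.08 ± 0.29 (SE; limma, Benjamini-Hochberg adjusted p = 0.919). Of 84 members in DNA repair genes, 1 rose and 5 fell (5.95%), and 11 had a higher (13.1%) and 1 a lower ratio. The protein-coding sum fell in 22 of 37 of these genes (59.5%, against 38.4%).

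Members in genes of protein synthesis rose more often than they fell under each of the 5 scalings tried. The same held for the lists of core spliceosome, hnRNP, splicing kinase and p53 target genes, so it is not particular to protein synthesis. Of 196 members in genes of cytosolic ribosomal proteins, 23 rose (11.7%) and 4 fell (2.04%), and 15 had a higher ratio (7.65%). Of 67 in genes of tRNA synthetases, which load amino acids onto tRNAs, 7 rose (10.4%), 1 fell (1.49%) and 14 had a higher ratio (20.9%, near the share over all members). GARS-206, of the glycyl enzyme, had 33.4, 32 and 36.6 CPM in the DMSO libraries and 42.9, 51.3 and 50.2 CPM in the auxin libraries, and rose by 0.50 ± 0.10 (SE; edgeR, Benjamini-Hochberg adjusted p = 0.0203). That call was lost without DMSO replicate 1 or 2 or auxin replicate 2 or 3, at adjusted p of 0.0606 to 0.0878.

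Of 35 members in genes of p53 targets, 4 rose (11.4%) and 2 fell (5.71%), and 3 had a higher (8.57%) and 1 a lower ratio. TNFRSF10B-208, of a death receptor gene, had 100.3, 99.9 and 94.3 CPM in the DMSO libraries and 153, 152 and 148 CPM in the auxin libraries, without overlap. It rose by a log2 fold change of 0.62 ± 0.06 (SE; edgeR, Benjamini-Hochberg adjusted p = 0.00171), and the protein-coding sum rose by 0.61 (edgeR, Benjamini-Hochberg adjusted p = 0.00819). With limma-trend on log2(TPM + 1) its adjusted p was 0.263.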

How the data were processed

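For every library the authors deposited a transcript table and a gene table, which per the file headers hold an expected count (an estimated, unscaled number of reads), TPM and the posterior SD of the count. Per the submitters' processing notes, bcl2fastq 2.20, STAR and DESeq2 were used, on GRCh38. Transcript types, coordinates and sequences come from GENCODE release 29, which holds every human transcript ID in the tables. Whether counting used the strand is not given in the sources used here.

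Expected counts were rounded, filtered with filterByExpr, scaled with TMM and tested with edgeR 4.0.16 (glmQLFit, glmQLFTest) in R 4.3.3, over all transcripts and over sums per gene and type. The filter removed 19 members. Log2 ratios of a transcript to its protein-coding sum, 0.5 counts added to each, were tested with limma 3.58.1 (trend); 295 members were not tested. The threshold was 0.05 after Benjamini-Hochberg adjustment.

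Same-numbered libraries deviated together from their group means, with correlations of 0.759, 0.408 and 0.402 across transcripts, and a fit with the replicate number as a block was run as an alternative; all other values come from fits without it. Replicates 2 and 3 also correlated across numbers, at 0.355 and, for DMSO replicate 3 with auxin replicate 2, at 0.482, above their same-numbered pairs, so the pattern separates replicate 1 from the other two.

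Named members were the 10 of highest CPM; those of largest level change (8 each way, groups apart) or ratio change (6 each way), with a mean of at least 1 CPM and a posterior SD of at most 25% of the count; the 6 of highest DMSO TPM ratio; and the most abundant of each gene list, of which 1 is not reported here. Members, lists and rules were chosen with earlier results of these data known. Alternatives included DESeq2 1.42.0, other scalings and filters, TPM and leaving out each library.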

Additional observations from a re-analysis of the deposited data

How the results depend on the processing

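Level calls of members, 710 higher and 752 lower, depended on the test. DESeq2 gave 1444 and 1368, limma-trend on log2(TPM + 1) 213 and 442, limma-trend on log2(TPM + 0.1) 275 and 561, and library size only 461 and 691. Leaving out 1 library gave 276 to 617 higher and 379 to 774 lower. Protein-coding sums numbered 1988 higher with upper-quartile factors, 117 with log2(TPM + 1), 131 with log2(TPM + 0.1), and 662 to 1208 higher and 1684 to 1867 lower without 1 library. Ratio calls without 1 library were 1208 to 1744 higher and 45 to 153 lower.

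With the replicate block, which pairs the libraries, 1235 members rose, 1670 protein-coding sums rose and 173 ratios were lower. The block gave an adjusted p of 0.0825 for the ratio of MGAT4B-204.

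Smaller sets of members held fewer calls, and in some of them the shares differed from those over all members as well. At a mean count of 1000 or more, 14.3% rose, 11% fell and 12.9% of ratios were higher. Over all members these shares were 6.81%, 7.21% and 17.9%. Among members with at least 50% intronic bases 6.11% rose, 2.91% fell and 18.1% of ratios were higher. At a mean count of 200 or more, 472 rose, 470 fell, 861 ratios were higher and 62 lower. At 1000 or more these were 186, 144, 165 and 17. Among members with at least 50% intronic bases they were 208, 99, 616 and 20, and with 1 member per gene 389, 443, 800 and 55. The last 2 sets were chosen after seeing the data.

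The median level change of 0.026 was 0.207 with upper-quartile factors, -0.076 with library size only and -0.153 to 0.175 without 1 library. The difference in TPM share, -0.204 percentage points, ranged from -0.364 to 0.099 without 1 library. Of 38 results past the threshold for named members, 21 lost it under at least 1 alternative, and none reversed. TPM-based tests, members with few intronic bases and counts split between transcripts limit these values. Depth limits the rarer members: 40 to 362 of them had fewer than 10 counts in a library.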
